A study of Mus musculus with 18 samples.

Results

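Batokines are secreted proteins by which brown fat acts on other cells, and several of them act on nerves. The genes described here code for 6 such factors, Nrg4, S100b, Slit2, Metrnl, Nrtn and Bdnf. They were taken by their gene symbols, 1 row per symbol, from the 52093 symbols of the deposited tables. All 6 were found, each with a single row. The 3 groups were adipocytes isolated from inguinal white adipose tissue (iWAT), adipocytes isolated from epididymal white adipose tissue (eWAT) and intact brown adipose tissue (BAT), with 6 libraries each. All 18 libraries came from wild-type male C57BL/6 mice after 12 weeks of high-fat feeding (HFD), so no lean group and no genetic change entered any comparison. The sources name both C57BL/6J and C57BL/6NTac for the strain, and give an age of 16 weeks that falls short of a diet begun at 6 weeks of age and kept for 12 weeks, so substrain and age are uncertain. White adipocytes were obtained with collagenase as the floating layer, whereas BAT was frozen whole, so that tissue and preparation cannot be told apart in the comparisons with BAT.

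Fat depots are supplied by sympathetic nerves, which release noradrenaline and thereby drive lipolysis and heat production. Adipocytes in turn secrete proteins that guide, branch or sustain these nerve fibres. Neuregulin 4 (Nrg4) is an EGF-like ligand of the ERBB receptor tyrosine kinases, S100b is a calcium-binding protein that can leave the cell and stimulate neurite growth, and Slit2 is a secreted axon guidance protein that binds ROBO receptors. Meteorin-like (Metrnl) is a secreted protein of muscle, fat and macrophages, neurturin (Nrtn) is a GDNF family ligand that signals through RET, and brain-derived neurotrophic factor (Bdnf) acts through TrkB.

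Both BAT-high and BAT-low genes were present among the 6, and the upstream sequences of the 3 genes that were highest in BAT (S100b, Nrg4 and Nrtn) and of 1 gene that was lowest there (Metrnl) are shown as the DNA next to which these opposite levels were measured. Each run holds the 250 bases before the RefSeq start of the gene on the gene's own strand. S100b lies at chr10:76253586-76253835 (+ strand), Nrg4 at chr9:55283626-55283875 (- strand), Nrtn at chr17:56757549-56757798 (- strand) and Metrnl at chr11:121702177-121702426 (+ strand), all in GRCm38.p6. Capitals mark every match, on either strand, to 1 of 6 short motifs: AGGTCA (the core of many nuclear receptor sites), TGACG (the core of cyclic AMP response elements), CCAAT (the box of that name, found in many promoters), CACGTG (the E-box that clock proteins and Myc bind), GGGCGG (the GC box that Sp factors bind) and TATAAA (the TATA box that helps place the start). No 2 matches overlap in these runs.
S100b: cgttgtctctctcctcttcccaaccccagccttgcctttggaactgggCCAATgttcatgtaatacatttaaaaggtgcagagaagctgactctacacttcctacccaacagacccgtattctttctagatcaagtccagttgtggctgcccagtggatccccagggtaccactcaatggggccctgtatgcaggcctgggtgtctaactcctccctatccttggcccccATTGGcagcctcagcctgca
Nrg4: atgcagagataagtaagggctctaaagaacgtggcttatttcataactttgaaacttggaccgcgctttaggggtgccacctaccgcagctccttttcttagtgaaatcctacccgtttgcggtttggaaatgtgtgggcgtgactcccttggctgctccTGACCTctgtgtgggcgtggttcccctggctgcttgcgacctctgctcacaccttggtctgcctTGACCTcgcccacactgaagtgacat
Nrtn: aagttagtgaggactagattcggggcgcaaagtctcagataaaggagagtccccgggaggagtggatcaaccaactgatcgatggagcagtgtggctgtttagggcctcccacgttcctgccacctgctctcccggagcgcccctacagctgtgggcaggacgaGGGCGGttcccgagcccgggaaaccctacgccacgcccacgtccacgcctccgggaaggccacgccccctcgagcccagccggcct
Metrnl: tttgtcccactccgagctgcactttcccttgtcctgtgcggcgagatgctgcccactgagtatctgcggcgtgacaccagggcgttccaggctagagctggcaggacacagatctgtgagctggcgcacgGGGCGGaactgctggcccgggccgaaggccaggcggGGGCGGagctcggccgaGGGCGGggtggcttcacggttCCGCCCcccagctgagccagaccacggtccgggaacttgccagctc

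The Nrg4 run held AGGTCA 2 times, both on the opposite strand (printed as TGACCT), and 14.02% of the 32851 windows of the same length in the RefSeq table held this motif at least once. S100b held CCAAT 2 times (1 of them on the opposite strand), a motif found in 33.8% of all windows. In Nrtn the GC box occurred 1 time and in Metrnl 4 times, against 32.7% of windows with at least 1 match. None of these 4 runs held the cyclic AMP response core, the E-box or the TATA box, which occurred in 17.8%, 6.02% and 12.4% of windows. No motif was shared by the 3 genes that were highest in BAT, and these letters alone say nothing on which factors bind there. Each run matched the NCBIM37 genome, the build of the deposited tables, at 1 place. For S100b and Nrtn the RefSeq start was the first base of the deposited row, for Metrnl it lay 883 bases inside the row, and for Nrg4 43219 bases inside it.

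Reads on the rows ranged from 26768529 to 30166441 per library in iWAT, from 24655056 to 37438994 in eWAT and from 27402247 to 42518483 in BAT. In BAT the 10 most abundant rows took 43.6% to 54.3% of these reads, against 9.94% to 20.5% in the white adipocytes, which lowers the RPKM (reads scaled to transcript length and library size) of every other BAT gene. Levels are therefore given below as RPKM, whereas differences are fitted log2 fold changes that scale the libraries to each other by edgeR's trimmed mean of M values (TMM). The labelled tissues matched their markers. The summed RPKM of 7 brown adipocyte markers, Ucp1 included, was 2942 to 4309 in BAT, 32.6 to 51.0 in iWAT and 6.73 to 18.3 in eWAT, while that of 6 general adipocyte markers was 5555 to 6856, 11915 to 16770 and 3232 to 8617, respectively. Macrophage markers were also present in the floating layer, with a summed RPKM of 2564 to 4134 in eWAT, 452 to 891 in iWAT and 24.5 to 48.4 in BAT. BAT of mouse 2 stood apart in its skeletal muscle markers (summed RPKM 1.45, against 16.7 to 114 in the other BAT libraries). In bulk samples of this kind, fewer cells of a type and less RNA per cell cannot be told apart.

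By RPKM on the deposited rows, S100b led the 6 transcripts in BAT and Metrnl led them in eWAT, while no single one led in iWAT. S100b made up 79.2% of their summed mean RPKM in BAT, where it ranked 598 of 52093 symbols, and Metrnl made up 84.9% in eWAT, where it ranked 2134. In iWAT the sum was spread over Nrg4 (37.8%) and Metrnl (36.8%), followed by S100b. The order in iWAT was Nrg4, Metrnl, S100b, Bdnf, Slit2 and Nrtn, in which Nrg4 and Metrnl overlapped over mice, as did Bdnf and Slit2. In eWAT it was Metrnl, Nrg4, S100b, Slit2, Bdnf and Nrtn, and each neighbouring pair from S100b downwards overlapped. In BAT it was S100b, Nrg4, Nrtn, Metrnl, Bdnf and Slit2, with an overlap between Bdnf and Slit2 only. These shares and orders depend on the row lengths used for RPKM. GENCODE exons hold 1586 bases for Metrnl and 1484 for S100b, against rows of 5101 and 2809 bases. For Nrg4 the lengths were 6079 and 6091 bases, so the near tie of Nrg4 and Metrnl in iWAT rests on the row lengths.

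**Figure D1:**
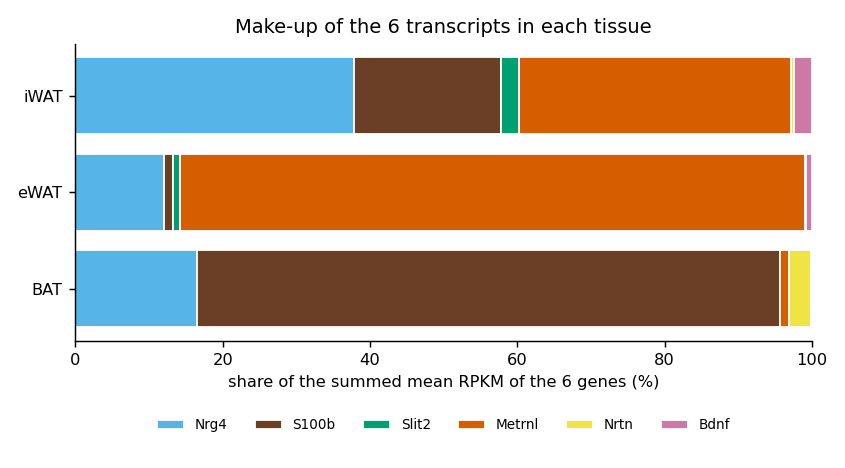
Share of the summed mean RPKM of the 6 genes (x axis, percent) taken by each gene in iWAT adipocytes, eWAT adipocytes and BAT (y axis), from the means of 6 mice per tissue. S100b fills 79.2% of the BAT bar and Metrnl 84.9% of the eWAT bar, whereas the iWAT bar is divided among Nrg4, Metrnl and S100b. The shares depend on the lengths of the deposited rows.

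S100b had the largest difference of the 6 genes between eWAT and BAT and also between the white depots. In BAT its level was 48.8, 56.9 and 64.2 RPKM in the lowest, median and highest mouse (57.2 ± 5.20, mean ± SD, n = 6). The iWAT adipocytes had 3.45, 4.51 and 4.86 RPKM (4.37 ± 0.564, n = 6). In eWAT adipocytes it was 0.168, 0.351 and 0.658 RPKM (0.360 ± 0.172, n = 6), from 14 to 49 reads per library. Every BAT library was thus above every iWAT library, and every iWAT library above every eWAT library. The fitted log2 fold change was -7.92 for eWAT over BAT (SE 0.24, edgeR quasi-likelihood test, Benjamini-Hochberg adjusted p = 2.75e-13), a 243-fold difference. For iWAT over BAT it was -4.32 (SE 0.11, edgeR adjusted p = 2.04e-13), and for iWAT over eWAT 3.63 (SE 0.24, edgeR adjusted p = 2.1e-07). Without TMM scaling the values were -7.01, -3.46 and 3.55. Among 19623 genes tested between the white depots, 71 (0.362%) had a larger absolute log2 fold change than S100b. Between eWAT and BAT these were 102 of 20076 (0.508%), and between iWAT and BAT 549 of 19745 (2.78%).

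The S100b row (Entrez 20203, NCBIM37 chr10:75716581-75724064, + strand, 3 exons, 2809 bases) overlaps the row of Dip2a on the other strand, and the library kit did not keep strand. The GENCODE exons of the pair share 0 bases. Those of S100b hold 1484 bases, against 2809 in the counted row, so this check does not cover the whole row. In eWAT the Dip2a row had at least 557 reads while S100b had at most 49. S100b is also a Schwann cell protein, and 8 Schwann cell markers were therefore read beside it. Their summed RPKM was 7.29 to 11.3 in BAT, 23.1 to 36.5 in iWAT and 9.62 to 15.0 in eWAT, so that the tissue with the highest S100b had a lower sum than iWAT. Most of the sum came from Scn7a and Mbp. In the fit, 5 of 6 tested Schwann cell markers were higher in iWAT than in eWAT (34.1% of all genes were). Of 8 tested against BAT, 2 were higher in iWAT and 4 in BAT (38.1% and 37.2% of all genes). Of the same 8, 2 were higher in eWAT and 6 in BAT (41.1% and 41.4%). The narrower markers Sox10, a transcription factor of the glial lineage, and Cdh19 had 0.258 and 0.803 RPKM in BAT, 0.168 and 0.400 in iWAT and 0.00845 and 0.0280 in eWAT, with Sox10 at no more than 2 reads in any eWAT library. In eWAT the order of the 6 mice by S100b (from mouse 3 as the lowest to mouse 4 as the highest) was the same as their order by the brown adipocyte marker sum. Their order by the Schwann cell marker sum was nearly the same, with 4 of 6 mice at the same rank. The general adipocyte marker sum also gave nearly this order in eWAT. It ranked the mice 3, 1, 16, 5, 4 and 2, beside 3, 1, 16, 5, 2 and 4 by S100b. Of the brown adipocyte markers, Cox8b had 7.01 RPKM in eWAT and Ucp1 0.261 RPKM. In iWAT and BAT 0 and 1 of 6 mice held the same rank by S100b and by the brown adipocyte sum, and 1 and 1 of 6 by S100b and the Schwann cell sum. The part of any of these cell types in the S100b level was not tested.

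Nrg4 was highest in BAT and lowest in eWAT. Its BAT level was 9.08, 11.3 and 14.6 RPKM in the lowest, median and highest mouse (11.9 ± 2.08, n = 6). In iWAT adipocytes it was 6.54, 8.01 and 9.94 RPKM (8.27 ± 1.34, n = 6). The eWAT adipocytes had 1.57, 3.49 and 4.87 RPKM (3.26 ± 1.24, n = 6). Both other groups lay above all eWAT libraries, whereas the RPKM of iWAT and BAT overlapped. The log2 fold change was 1.35 for iWAT over eWAT (SE 0.24, edgeR adjusted p = 0.000265) and -2.46 for eWAT over BAT (SE 0.23, edgeR adjusted p = 9.47e-08). For iWAT over BAT it was -1.13 (SE 0.14, edgeR adjusted p = 2.57e-06). This call depended on the scaling. Without TMM it was -0.28 with an adjusted p of 0.0590, and the mean RPKM of BAT was 1.44 times that of iWAT. For eWAT over BAT the log2 fold change without TMM was -1.55.

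The Nrg4 row (Entrez 83961, NCBIM37 chr9:55068029-55174651, - strand, 20 exons, 6091 bases) overlaps the Fbxo22 row on the opposite strand, and 368 of its exonic bases (6.05%) are shared in GENCODE. Fbxo22 had 545 to 1514 reads per library over the 18 libraries and at least 754 in eWAT, where Nrg4 was as low as 284 reads. Mouse 3 and mouse 1 had the lowest Nrg4 in eWAT, with 1.57 and 2.11 RPKM. The same 2 mice had the lowest summed adipocyte markers of that tissue, with 3232 and 4216 against 5789 to 8617 in the other 4. Over all 6 mice, 2 in eWAT, 3 in iWAT and 1 in BAT held the same rank by Nrg4 and by these markers. In BAT mouse 17 had the lowest Nrg4 (9.08 RPKM) with the highest marker sum (6856), and mouse 2 the highest Nrg4 (14.6 RPKM) with a sum of 5615. After the mean of each tissue was subtracted, the genes most like Nrg4 over the 18 samples were Lgals12 (Pearson r = 0.956 of log2(RPKM + 0.1)), Fam123b (0.950) and Plin4 (0.949), of which Plin4 is a lipid droplet coat protein and Lgals12 an adipocyte galectin. How far the share of adipocytes entered the Nrg4 level was not tested.

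Nrtn had its reads almost entirely in BAT. The BAT level was 1.57, 2.08 and 3.09 RPKM in the lowest, median and highest mouse (2.25 ± 0.644, n = 6), from 40 to 114 reads. In iWAT adipocytes it was 0.0308, 0.0809 and 0.154 RPKM (0.0866 ± 0.0609, n = 6), which stood for 1 to 5 reads per library. The eWAT adipocytes had 0, 0.0117 and 0.172 RPKM (0.0379 ± 0.0671, n = 6), or 0 to 6 reads. All 6 BAT libraries were above all 12 white adipocyte libraries, and the white depots overlapped. The log2 fold change was -5.25 for iWAT over BAT (SE 0.32, edgeR adjusted p = 7.51e-10) and -4.42 without TMM. For eWAT over BAT it was -6.27 (SE 0.46, edgeR adjusted p = 4.55e-09) and -5.40 without TMM. Mouse 16 contributed 6 of the 8 reads in eWAT, and without that library the second value was -7.67. Between the white depots Nrtn was not tested, since its mean over the 12 libraries was 2 reads, below the minimum of 10, and a difference was not detectable at this depth. The row (Entrez 18188, NCBIM37 chr17:56890748-56896971, - strand, 3 exons, 1041 bases) overlaps no other row.

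Metrnl had the opposite order, with its highest level in eWAT. There it was 19.5, 23.3 and 25.8 RPKM in the lowest, median and highest mouse (23.1 ± 2.71, n = 6). In iWAT adipocytes it was 5.38, 7.98 and 10.7 RPKM (8.05 ± 1.83, n = 6). BAT had 0.722, 0.827 and 0.950 RPKM (0.823 ± 0.0773, n = 6). The 3 groups did not overlap in any pair. The log2 fold change was -1.51 for iWAT over eWAT (SE 0.14, edgeR adjusted p = 1.05e-06). For iWAT over BAT it was 2.68 (SE 0.14, edgeR adjusted p = 1.39e-10), and for eWAT over BAT 4.22 (SE 0.11, edgeR adjusted p = 8.33e-14). Without TMM the BAT comparisons gave 3.54 and 5.13. The row (Entrez 210029, NCBIM37 chr11:121562858-121578703, + strand, 5 exons, 5101 bases) overlaps no other row.

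Metrnl had the same order of tissues as macrophage markers. All 6 macrophage markers (Cd68, Emr1, Itgam, Csf1r, Cd14 and Lyz2) were higher in eWAT than in iWAT (34.5% of all genes were). All 6 were also higher in iWAT than in BAT (38.1% of all genes) and in eWAT than in BAT (41.1%). Metrnl had the same directions. Cd68, a lysosomal protein of macrophages, had 567 RPKM in eWAT, 140 in iWAT and 3.11 in BAT. Within iWAT the 6 mice stood in the same order by Metrnl and by the summed macrophage markers, from mouse 2 (5.38 RPKM, marker sum 452) to mouse 3 (10.7 RPKM, marker sum 891). Within eWAT mouse 1 and mouse 3 had both the highest marker sums (4134 and 4064) and the highest Metrnl (25.7 and 25.8 RPKM), although no mouse held the same rank in both orders and mouse 5 had 24.9 RPKM of Metrnl at the second lowest sum (2593). Within BAT 2 of 6 mice held the same rank. The genes whose pattern was most like Metrnl over the 18 samples were 5430435G22Rik (r = 0.999), Plxnc1 (0.999), a semaphorin receptor, and Cd44 (0.998), a hyaluronan receptor. With the mean of each tissue subtracted they were Plxnc1 (0.957), Dpy19l3 (0.926) and 5430435G22Rik (0.921). Whether the Metrnl reads came from adipocytes or from macrophages was not tested.

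**Figure D2:**
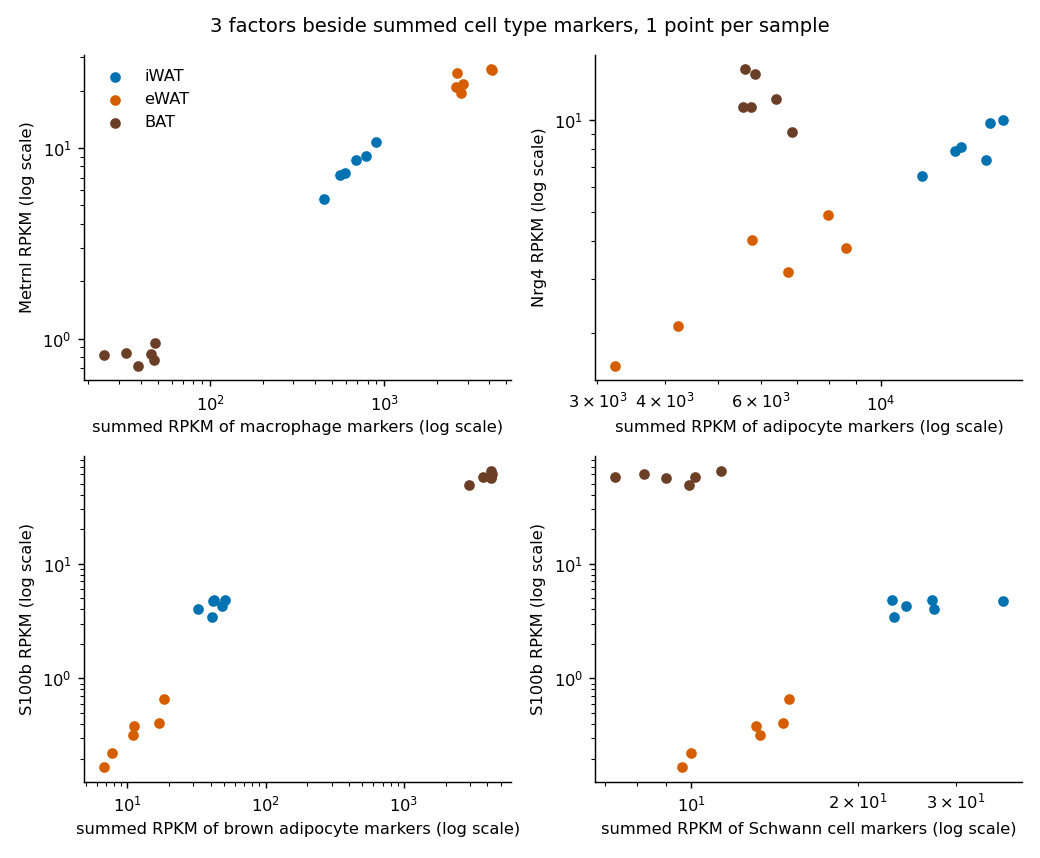
RPKM of Metrnl, Nrg4 and S100b (y axes, log scale) against the summed RPKM of macrophage, adipocyte, brown adipocyte or Schwann cell markers (x axes, log scale), with 1 point per sample and a colour per tissue. Metrnl and the macrophage sum have the same order of tissues, from BAT (marker sum 24.5 to 48.4) to eWAT (2564 to 4134), whereas BAT has the highest S100b at a Schwann cell sum of 7.29 to 11.3, below that of iWAT.

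Slit2 was low throughout and was nearly missing from BAT. In iWAT adipocytes it was 0.410, 0.504 and 0.830 RPKM in the lowest, median and highest mouse (0.539 ± 0.151, n = 6). The eWAT adipocytes had 0.122, 0.239 and 0.389 RPKM (0.248 ± 0.0888, n = 6). BAT had 0.00513, 0.0105 and 0.0190 RPKM (0.0115 ± 0.00464, n = 6), which stood for 3 to 13 reads per library. No 2 groups overlapped. The log2 fold change was 1.13 for iWAT over eWAT (SE 0.24, edgeR adjusted p = 0.000983), and 0.95 without mouse 16 of iWAT, which stood apart at 0.830 RPKM. It was 4.92 for iWAT over BAT (SE 0.25, edgeR adjusted p = 1.01e-10) and 3.82 for eWAT over BAT (SE 0.31, edgeR adjusted p = 1.62e-08), or 5.75 and 4.70 without TMM. The row (Entrez 20563, NCBIM37 chr5:48374394-48697017, + strand, 41 exons, 17726 bases) overlaps 5 rows that had at most 1 read in any library.

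Bdnf followed the order of Slit2. In iWAT adipocytes it was 0.276, 0.556 and 0.698 RPKM in the lowest, median and highest mouse (0.542 ± 0.151, n = 6). The eWAT adipocytes had 0.0920, 0.202 and 0.318 RPKM (0.200 ± 0.0916, n = 6). BAT had 0.00501, 0.0441 and 0.0532 RPKM (0.0368 ± 0.0177, n = 6), or 1 to 12 reads. Both white depots lay above all BAT libraries, and iWAT and eWAT overlapped through mouse 3 of iWAT. The log2 fold change was 1.45 for iWAT over eWAT (SE 0.31, edgeR adjusted p = 0.000946). Against BAT it was 3.26 for iWAT (SE 0.32, edgeR adjusted p = 1.89e-07) and 1.84 for eWAT (SE 0.41, edgeR adjusted p = 0.000639), or 4.09 and 2.72 without TMM. The row (Entrez 12064, NCBIM37 chr2:109514857-109567204, + strand, 8 exons, 5850 bases) overlaps no other row.

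**Figure D3:**
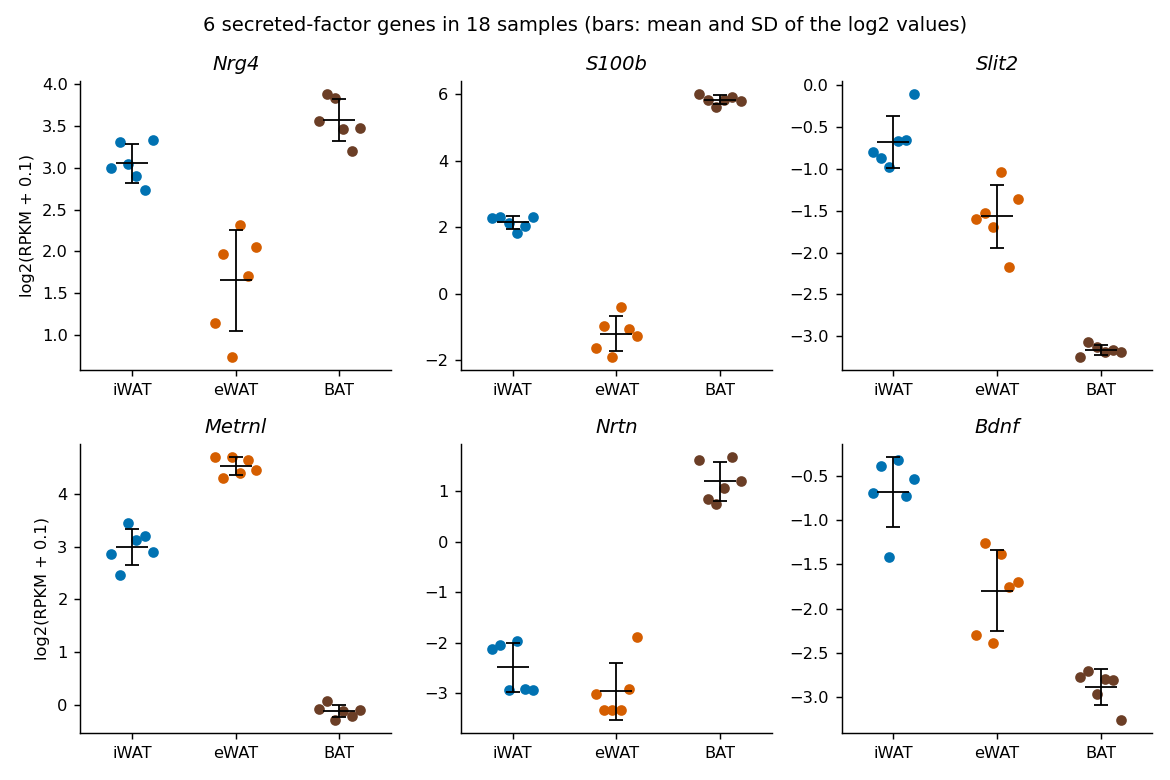
log2(RPKM + 0.1) of the 6 genes (y axes, 1 panel per gene with its own scale) in each library of iWAT adipocytes, eWAT adipocytes and BAT (x axes), with the mean and SD of the log2 values over 6 mice in black. S100b, Nrg4 and Nrtn are highest in BAT, Metrnl is highest in eWAT, and Slit2 and Bdnf are highest in iWAT.

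Many genes differed between these tissues, and the calls of the 6 genes have to be read against that. Between iWAT and eWAT 5 of 5 tested genes passed an adjusted p of 0.05, against 68.6% of all genes tested. Nrg4, S100b, Slit2 and Bdnf were higher in iWAT (34.1% of all genes) and Metrnl was higher in eWAT (34.5%). Between iWAT and BAT 6 of 6 passed, against 75.3% of all genes. Between eWAT and BAT 6 of 6 passed as well, against 82.5%. Slit2, Metrnl and Bdnf were higher in iWAT than in BAT (38.1% of all genes were) and higher in eWAT than in BAT (41.1%). Nrg4, S100b and Nrtn were higher in BAT than in iWAT (37.2% of all genes were) and than in eWAT (41.4%). The RPKM ranges of the 2 tissues did not overlap for 4 of 5 genes between the white depots (44.0% of all genes), for 5 of 6 between iWAT and BAT (65.3%) and for 6 of 6 between eWAT and BAT (68.4%). By direction, ranges that lay apart were higher in iWAT for 3 genes (21.2% of all genes) and in eWAT for 1 (22.8%), in iWAT for 3 (51.8%) and in BAT for 2 (13.5%), and in eWAT for 3 (49.2%) and in BAT for 3 (19.2%). The comparisons share their libraries in pairs and are not independent of one another. The white depots were sequenced in 2 lanes, and within each lane the sign of the difference between iWAT and eWAT was the same as in the fit for the 5 genes tested. For S100b the mean difference in log2(RPKM + 0.1) was 3.28 in lane 1 and 3.56 in lane 2, for Metrnl it was -1.36 and -1.65, and for Bdnf 0.643 and 1.501. All BAT libraries were run in 2 further lanes, and there the lane cannot be told apart from the tissue.

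**Figure D4:**
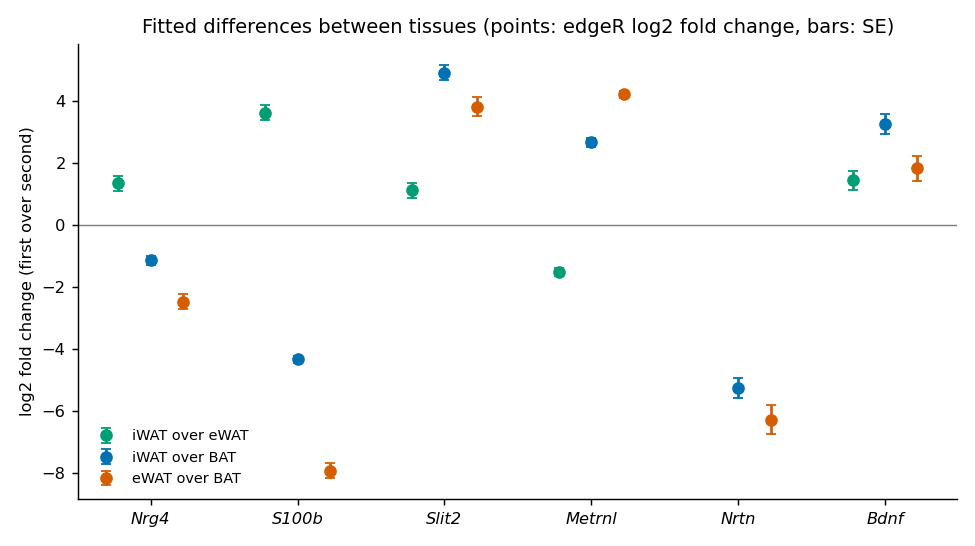
Fitted log2 fold change (y axis, points) with its SE (bars) for each of the 6 genes (x axis) in iWAT over eWAT, iWAT over BAT and eWAT over BAT. S100b has the lowest value, -7.92 in eWAT over BAT, and Slit2 the highest, 4.92 in iWAT over BAT. Nrtn has no point for iWAT over eWAT because it was not tested there.

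The receptors through which the 6 factors are known to act were read in the same libraries. Of 15 receptor genes, 14 were tested between iWAT and eWAT, of which 9 were higher in iWAT and 1 in eWAT, where 68.6% of all genes passed in either direction. Against BAT, 5 of 14 were higher in iWAT and 3 in BAT (75.3% of all genes passed), while 4 of 12 were higher in eWAT and 6 in BAT (82.5%). The share of receptors that passed in either direction was thus near or below that of all genes. By direction, 34.1% of all genes were higher in iWAT and 34.5% in eWAT between the white depots. Between iWAT and BAT these were 38.1% and 37.2%, and between eWAT and BAT 41.1% and 41.4%. The receptor calls between the white depots thus lay mostly on the iWAT side. The median log2 fold change of the tested receptors was 1.14, 0.10 and -0.84 in the 3 comparisons, beside 0.00, 0.01 and -0.02 over all genes.

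Of the neuregulin receptors, Erbb4, which binds Nrg4 directly, had 0.107 RPKM in iWAT, 0.00608 in eWAT and 0.416 in BAT. It thus had the same order of tissues as its ligand and differed in all 3 comparisons, with log2 fold changes of 4.14, -2.57 and -6.68 (edgeR adjusted p = 1.41e-06, 1.01e-08 and 3.74e-11). At most 4 reads fell on Erbb4 in any eWAT library. Erbb3 had 0.167, 0.252 and 0.365 RPKM in iWAT, eWAT and BAT. Unlike Nrg4 it was lower in iWAT than in eWAT (log2 fold change -0.60, edgeR adjusted p = 0.0137). Erbb2, the shared partner that binds no ligand of its own, had 4.30, 3.77 and 2.69 RPKM. Despite its lower RPKM in BAT, Erbb2 did not pass against BAT. Its log2 fold change was 0.07 for iWAT and -0.10 for eWAT over BAT (edgeR adjusted p = 0.530 and 0.341). Ager, the receptor for advanced glycation end products and a known receptor of S100b, had 0.277, 0.182 and 0.164 RPKM and passed neither of the 2 tests run on it.

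Among the Slit receptors Robo4, known from endothelial cells, was the most abundant, with 14.3, 3.57 and 6.55 RPKM in iWAT, eWAT and BAT. It was higher in iWAT than in eWAT (log2 fold change 1.99, edgeR adjusted p = 1.81e-05), as were all 5 of the endothelial markers and 34.1% of all genes. Robo1, a receptor of growing axons, had 0.236, 0.227 and 0.0373 RPKM. Robo2 and Robo3 were at 0.0307 RPKM or less in each tissue. Kit, a receptor tyrosine kinase to which Metrnl can bind, had 1.66, 0.470 and 1.56 RPKM and was lowest where Metrnl was highest (log2 fold change 1.81 for iWAT over eWAT and -2.34 for eWAT over BAT, edgeR adjusted p = 0.000179 and 8.21e-08). Between iWAT and BAT, where Metrnl also differed, Kit did not pass (log2 fold change -0.55 for iWAT over BAT, edgeR adjusted p = 0.0851).

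Ret, the signalling receptor of the GDNF family, had 7.74, 1.89 and 0.187 RPKM in iWAT, eWAT and BAT, opposite in order to its ligand Nrtn between the white depots and BAT. The log2 fold change of Ret was 4.76 for iWAT over BAT and 2.74 for eWAT over BAT (edgeR adjusted p = 1.56e-12 and 1.01e-06), and 2.04 for iWAT over eWAT (edgeR adjusted p = 3.78e-05). Gfra2, the co-receptor that binds Nrtn, had 1.56, 1.67 and 0.285 RPKM and was also higher in both white depots than in BAT (log2 fold change 1.83 and 1.95, edgeR adjusted p = 2.54e-06 and 4.48e-07). Gfra1, the co-receptor of GDNF, had 0.244, 0.154 and 0.152 RPKM and passed no test.

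Ntrk2, which codes for the Bdnf receptor TrkB, had 9.57, 3.15 and 9.10 RPKM. It was lower in eWAT than in iWAT (log2 fold change 1.61, edgeR adjusted p = 0.000279) and than in BAT (-2.12, edgeR adjusted p = 3.14e-06). For iWAT over BAT the log2 fold change of Ntrk2 was -0.53 (edgeR adjusted p = 0.000695), which turned to 0.32 without TMM, so no direction is given. Ngfr, the low-affinity neurotrophin receptor p75, had 0.320, 0.0636 and 0.222 RPKM. Sort1, sortilin, which binds proneurotrophins and sorts proteins in adipocytes, had 45.4, 29.6 and 16.1 RPKM and was higher in iWAT than in eWAT and BAT (log2 fold change 0.63 and 0.90, edgeR adjusted p = 0.000507 and 5.03e-06), and higher in eWAT than in BAT (0.30, edgeR adjusted p = 0.0205).

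**Figure D5:**
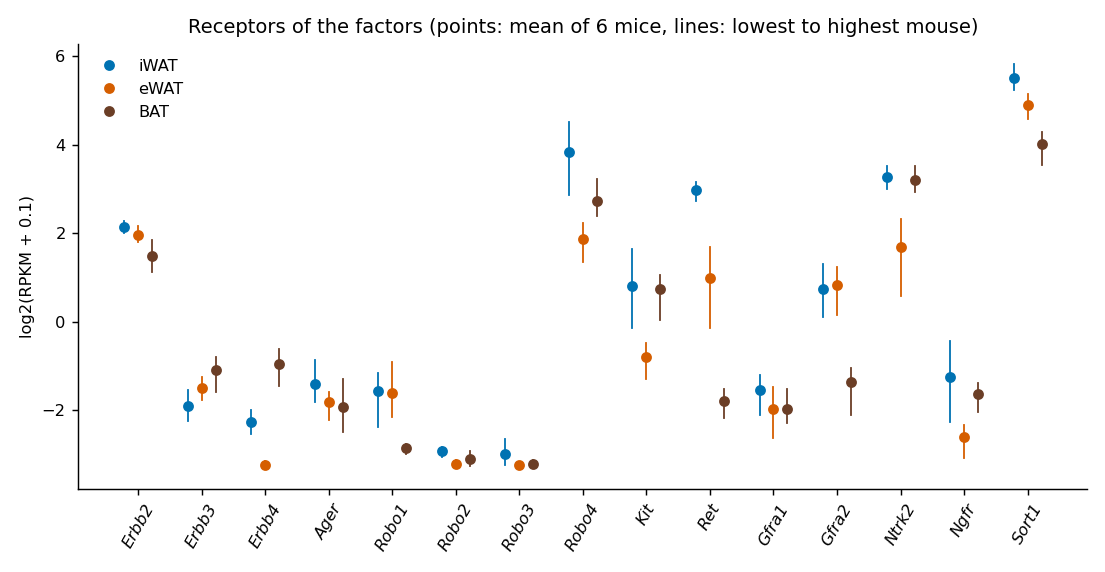
Mean log2(RPKM + 0.1) (y axis, points) of 15 receptor genes (x axis) in iWAT, eWAT and BAT, with lines from the lowest to the highest of 6 mice. Ret and Gfra2 are higher in both white depots than in BAT, and Erbb4 is highest in BAT at a mean of 0.416 RPKM.

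Genes that process or release these factors passed the test about as often as genes in general. Of 8 such genes, 3 were higher in iWAT and 3 in eWAT (68.6% of all genes passed in either direction), 4 were higher in iWAT and 2 in BAT (75.3%), and 4 were higher in eWAT and 3 in BAT (82.5%). Clstn3, the calsyntenin locus whose adipocyte form is known to promote S100b secretion, had 6.54 ± 1.45 RPKM in iWAT, 2.59 ± 1.28 in eWAT and 28.5 ± 4.17 in BAT (n = 6 each), the same order as S100b. Its log2 fold change was 1.35 for iWAT over eWAT, -2.72 for iWAT over BAT and -4.05 for eWAT over BAT (edgeR adjusted p = 0.00146, 1.73e-10 and 2.99e-09). Reads of the adipocyte form were not told apart from those of other forms of the Clstn3 locus. The shedding proteases Adam10 and Adam17 were highest in eWAT, with 23.98 and 19.5 RPKM, against 15.5 and 8.09 in iWAT and 4.64 and 3.81 in BAT. The proprotein convertase Furin had 12.1, 21.8 and 7.32 RPKM in iWAT, eWAT and BAT, and was higher in eWAT than in both (log2 fold change -0.84 for iWAT over eWAT and 0.99 for eWAT over BAT, edgeR adjusted p = 6.08e-05 and 1.23e-05). Pcsk6, another convertase, had 8.73, 2.19 and 8.20 RPKM, and its difference between iWAT and BAT changed sign without TMM (-0.51 with it, 0.33 without). Plat, tissue plasminogen activator, had 2.21, 2.21 and 0.855 RPKM and was higher in both white depots than in BAT (log2 fold change 0.74 and 0.78, edgeR adjusted p = 0.0105 and 0.000276).

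The relatives of S100b were divided between the tissues. Of 8 tested S100 genes other than S100b, 2 were higher in BAT than in iWAT, namely S100a1 (56.2, 61.2 and 170 RPKM in iWAT, eWAT and BAT) and S100a13 (34.6, 27.2 and 51.9 RPKM). The other 6 were higher in iWAT than in BAT. They included S100a4, which macrophages and fibroblasts also express, with 34.8, 128 and 1.53 RPKM, S100a6 with 146, 160 and 10.0 RPKM, and S100a8, a myeloid gene, with 6.06, 5.72 and 0.489 RPKM. S100a11 had 300, 219 and 84.0 RPKM and S100a16 32.3, 12.8 and 12.1 RPKM. In the TMM-scaled fit S100a16 was higher in BAT than in eWAT, although its mean RPKM was slightly lower there. The log2 fold change for eWAT over BAT was -0.51 (edgeR adjusted p = 0.0221). S100a9 had too few reads to be tested and did not have the order of S100a8. Its level was 0.180, 0.0668 and 0.410 RPKM in iWAT, eWAT and BAT, with at most 12 reads in any library. Between iWAT and eWAT 3 of the 8 were higher in iWAT and 2 in eWAT, and between eWAT and BAT 5 were higher in eWAT and 3 in BAT. Of all genes, 68.6% passed between the white depots, 75.3% between iWAT and BAT and 82.5% between eWAT and BAT.

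The paralogs of the other factors did not all follow them. Slit3 had 6.88 ± 1.26, 3.06 ± 0.644 and 1.48 ± 0.269 RPKM in iWAT, eWAT and BAT (n = 6 each), above Slit2 in every tissue and in the same order. Slit1 was low, with 0.0232, 0.129 and 0.00874 RPKM, and was higher in eWAT than in iWAT (log2 fold change -2.44, edgeR adjusted p = 1.87e-05), the reverse of Slit2 and Slit3. Metrn, the meteorin paralog of Metrnl, had 7.31, 4.71 and 1.001 RPKM and was higher in iWAT than in eWAT (log2 fold change 0.65, edgeR adjusted p = 0.000409), the reverse of Metrnl. No other GDNF family ligand (Gdnf, Artn or Pspn) had enough reads to be tested. Ntf3, neurotrophin 3, was higher in iWAT than in eWAT (log2 fold change 2.08, edgeR adjusted p = 0.000294). Unlike Bdnf, it was lower in eWAT than in BAT (-3.11, edgeR adjusted p = 1e-09).

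Of 10 further EGF family ligands, 7 were tested per comparison, with Nrg2 in place of Epgn between eWAT and BAT. Between the white depots 3 were higher in iWAT and 2 in eWAT (68.6% of all genes passed), against BAT 4 were higher in iWAT and 1 in BAT (75.3%), and 3 were higher in eWAT and 3 in BAT (82.5%). Areg and Ereg, ligands of the EGF receptor that myeloid cells also make, had 1.11 and 0.321 RPKM in iWAT and 2.42 and 1.20 in eWAT, and no BAT library had more than 1 read of either. Hbegf had 4.70, 4.91 and 0.148 RPKM in iWAT, eWAT and BAT. Btc had 2.27, 1.17 and 1.19 RPKM, and its call between eWAT and BAT (log2 fold change -0.61, edgeR adjusted p = 0.0386) turned to 0.28 without TMM and was also lost by limma, without a filter and without any 1 of 8 libraries, so no direction is given. Nrg1, Nrg2 and Nrg3, the other neuregulins, had at most 2, 20 and 1 reads in any library.

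Other secreted proteins that have been called batokines were not uniformly highest in BAT. Of 11 tested, 7 were higher in BAT and 3 in iWAT (37.2% and 38.1% of all genes were), 8 were higher in BAT and 3 in eWAT (41.4% and 41.1%), and between the white depots 2 were higher in iWAT and 3 in eWAT (34.1% and 34.5%). Vegfa, an angiogenic factor, had 30.7, 18.4 and 55.8 RPKM in iWAT, eWAT and BAT, Pm20d1, an N-acyl amino acid enzyme, had 0.665, 0.446 and 2.80 RPKM, and Gm6484, the older symbol of Angptl8, had 10.2, 2.76 and 14.7 RPKM. Ptgds, prostaglandin D2 synthase, had 9.10 RPKM in BAT, was listed at 0 in all iWAT libraries and had at most 27 reads in eWAT. Cxcl14, a chemokine, had 4.66, 8.20 and 8.13 RPKM. Its RPKM was near equal in eWAT and BAT, whereas the TMM-scaled fit called it higher in BAT. The log2 fold change for eWAT over BAT was -0.57 (edgeR adjusted p = 0.00529). In contrast, Il6 had 11.4, 11.2 and 0.00894 RPKM, with at most 1 read in any BAT library. Pltp, phospholipid transfer protein, had 151, 257 and 15.1 RPKM, and Gdf15, a stress-induced TGF-beta relative, 17.4, 59.4 and 5.59 RPKM.

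Other nerve-directed genes were mostly higher in iWAT than in eWAT, as Slit2 and Bdnf were. Of 13 tested, 9 were higher in iWAT and 2 in eWAT, against 34.1% and 34.5% of all genes. Sema3g, Ntn1, Sema3f and Sema3c, which code for secreted axon guidance proteins, had 13.5, 2.69, 4.94 and 11.1 RPKM in iWAT and 3.41, 1.155, 2.40 and 6.12 RPKM in eWAT. Against BAT the list was divided. Of 14 tested, 5 were higher in iWAT and 7 in BAT (38.1% and 37.2% of all genes were). Of 13 tested, 4 were higher in eWAT and 7 in BAT (41.1% and 41.4%). Sema3c was higher in both white depots than in BAT (1.06 RPKM), as was Lif, a cytokine that acts on sympathetic neurons, with 2.51, 2.76 and 0.0197 RPKM in iWAT, eWAT and BAT. Cdnf, a neurotrophic factor of the endoplasmic reticulum, was higher in BAT, with 1.25, 0.712 and 2.79 RPKM, as was Ntn4 with 0.664, 0.368 and 1.09 RPKM, although for iWAT over BAT the Ntn4 call was lost without TMM (log2 fold change -0.47, adjusted p = 0.155). Of 8 neuronal markers, 2 had enough reads to be tested. Their summed RPKM was 1.23 to 3.37 in iWAT, 2.28 to 23.5 in eWAT and 0.784 to 0.935 in BAT, and in the white depots most of it was Uchl1, a ubiquitin hydrolase, with 1.80, 13.8 and 0.328 RPKM. Stmn2, a protein of growing axons, had 0.297, 0.0919 and 0.395 RPKM and was lowest in eWAT (log2 fold change 1.69 for iWAT over eWAT and -2.70 for eWAT over BAT, edgeR adjusted p = 0.00115 and 1.37e-09). Th and Dbh, the noradrenaline synthesis enzymes, had no read in either white depot and at most 1 read in any BAT library. The cell bodies of the sympathetic neurons that supply fat are known to lie outside the depots.

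Over all 18 samples the genes whose log2(RPKM + 0.1) was most like S100b were E330011O21Rik, Acat1 and Khdrbs3 (r = 0.992 each), and the most like Nrg4 was Slc25a23 (0.986), a mitochondrial carrier. Those closest to Nrtn were AK040096 (0.984), Ak1 (0.980) and Ppp1r3b (0.979). Slit2 was closest to Tlr3 (0.980) and Bdnf to Prnp (0.976). These values follow the differences between the 3 tissues, which the samples of a tissue share. With the mean of each tissue subtracted, the highest r was 0.915 for S100b (1700056E22Rik), 0.825 for Slit2 (AK040829), 0.800 for Nrtn (AK040096) and 0.883 for Bdnf (ENSMUSG00000086460). All r given here, and those above for Nrg4 and Metrnl, were the highest found among 14156 or 14157 genes. What r such a search gives by chance was not tested. Nrtn had at most 6 reads in any white adipocyte library. Acat1 is a mitochondrial thiolase and Prnp the prion protein gene.

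The remaining cell type lists are given once, as they bear on the same libraries. All 5 endothelial markers were higher in iWAT than in eWAT (34.1% of all genes were). Their summed RPKM was 109 to 299.8, 35.4 to 75.7 and 78.3 to 117 in iWAT, eWAT and BAT. Mural markers had sums of 88.6 to 261, 29.9 to 69.2 and 104 to 148, and fibroblast markers 43.8 to 92.7, 46.8 to 77.3 and 16.8 to 26.7. Lymphocyte markers were between 0.496 and 2.40 in every library. The mesothelial markers Upk3b, Msln and Wt1 had 0.637, 0.310 and 0.201 RPKM in eWAT and at most 4, 1 and 1 reads in any iWAT or BAT library. Lrrn4, the most abundant of the 5 mesothelial markers, went the other way with 2.31, 1.99 and 8.30 RPKM in iWAT, eWAT and BAT, so that their sum was highest in BAT (7.05 to 9.91, against 1.97 to 2.70 and 2.36 to 4.96 in iWAT and eWAT). The BAT library of mouse 2, which had the lowest muscle markers, had 57.1 RPKM of S100b and 1.69 of Nrtn, within the range of the other BAT libraries, and 14.6 of Nrg4, the highest of the 6.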

How the data were processed

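RNA-seq was performed on iWAT adipocytes, eWAT adipocytes and whole BAT of HFD mice, with 6 libraries per tissue. Samples were grouped by their labels. A treatment field gives regular chow for all 18, against the titles and the study's description, and HFD was used. The authors prepared NEBNext Ultra libraries, ran them on a HiSeq sequencer and aligned reads with mm9 (NCBIM37). The submitters' processing notes name cutadapt 1.16 and HISAT2 2.1.0. The counting program, annotation and handling of reads with several places are not given in the sources used here. The deposited tables hold, per transcript row, whole-number read counts, the RPKM the authors computed from them, and normalized expression (NE) signal columns, which the authors added and which were not used for any result.

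The row with the highest mean RPKM was kept for each of 52093 symbols. Counts were tested with edgeR 4.0.16 in R 4.3.3 (TMM, quasi-likelihood test, two-sided, 12 libraries of the 2 tissues compared, mean count of at least 10, Benjamini-Hochberg adjustment over all genes tested, threshold 0.05), after the code had been tested on simulated data. Alternatives were DESeq2 1.42.0, limma 3.58.1 on log2(RPKM + 0.1) and log2(RPKM + 1), no TMM, no filter, mitochondrial rows left out, rows summed per symbol, all 18 libraries in 1 fit, lane as a covariate, a mouse block, and each library left out in turn. RPKM levels are means ± SD over 6 mice. Precision is set by the read counts printed with low values, which cover counting error only. Promoter sequences came from the RefSeq table (GRCm38.p6) and were placed in NCBIM37 by exact match.

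Library numbers in the titles were taken as mouse numbers, so same-numbered libraries of 2 tissues were taken as pairs (6 pairs between the white depots, 4 in each comparison with BAT). The correlation of same-numbered deviations from the tissue means averaged -0.005, -0.014 and 0.014 in the 3 comparisons. The study gives 6 mice per group, so p-values measure the spread between mice as far as each library is a separate mouse. Libraries of the same tissue differed by more than sampling noise (lowest chi-square per degree of freedom 16.0 over 45 pairs).

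The 6 genes and all gene and marker lists were chosen with earlier results of these data known. Named genes were the 6 factors, every receptor and, in each list and comparison, up to 4 tested genes past the threshold with the largest absolute log2 fold change and a mean RPKM of at least 1 in a compared tissue. For each factor the 3 genes with the highest Pearson r were sought among genes with a mean RPKM of at least 1. Ntf3, the tests of Erbb4 and the markers were named for their roles, after their values were seen. Libraries of chow-fed mice were not analysed here. 1 gene of the lists is not reported here.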

Additional observations from a re-analysis of the deposited data

Results flagged for a closer look

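In 2 of the 18 groups of 6 libraries, 1 library stood far from the others by Dixon's criterion, which chance alone meets in about 1 of 20 groups. Slit2 in iWAT adipocytes was 0.830 RPKM in mouse 16 (459 reads), against 0.410 to 0.536 RPKM in the other 5 mice. Without this library Slit2 was still higher in iWAT than in eWAT, with a log2 fold change of 0.95 (edgeR adjusted p = 0.00200). Nrtn in eWAT adipocytes was 0.172 RPKM in mouse 16, against 0 to 0.0324 RPKM in the other 5 mice, a difference that rests on 6 reads.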

How the results depend on the processing

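Of 379 alternative values for the 17 tested differences of the 6 genes, 378 kept their direction and their side of the threshold. The exception was Nrg4 in iWAT over BAT, which was -0.28 (adjusted p = 0.0590) without TMM scaling. Leaving out TMM shifted the median over all genes in the BAT comparisons to a log2 value of 0.87 for iWAT over BAT and 0.89 for eWAT over BAT, and the share of calls that were higher in the white adipocytes from 50.6% to 81.8% and from 49.8% to 76.1%. The mouse number as a replicate block changed no call of the 6 genes. With the block, the log2 fold change of S100b was 3.67, -4.26 and -8.03 and that of Metrnl -1.54, 2.45 and 4.16 in the 3 comparisons. In the comparisons with BAT, only the 4 mice with both tissues inform the blocked contrast. RPKM rescaled by TMM factors gave a level of 16.2 for Nrg4, 77.7 for S100b, 1.12 for Metrnl and 3.04 for Nrtn in BAT, and of 20.3 for Metrnl in eWAT. No library left out in turn changed a call of the 6 genes. Of 1720 alternative values for 77 differences of other named genes, 1695 were alike, 16 lost the threshold and 9 changed direction. Ntrk2 in iWAT over BAT was 0.32 without TMM, and 0.0771, 0.0700 and 0.0771 by limma with a pseudocount of 0.1, of 1 and without a filter. Pcsk6 in the same comparison was 0.33, 0.11, 0.10 and 0.11. Btc in eWAT over BAT was 0.28 without TMM. The cause of these changes was not tested. Values under about 0.1 RPKM rest on few reads, as for Nrtn in the white depots and Slit2 and Bdnf in BAT.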
